A study of Rattus norvegicus with 57 samples.

Results

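The 10 kidneys described here are the cisplatin-treated kidneys of day 8, 5 rats at 1 mg/kg and 5 at 3 mg/kg, out of 57 arrays in the series. They were set apart to ask how far individual animals of the same dose differed from each other, and which transcripts varied together with a pair of markers. Havcr1 encodes KIM-1, a membrane protein made by injured proximal tubule cells, and Umod encodes uromodulin, the protein secreted by the thick ascending limb of the loop of Henle. Within each dose, the log2(signal + 16) of every gene was centred on the mean of its 5 animals, and each of 11682 other genes was correlated with Havcr1 and with Umod over the 10 animals. The day 8 saline kidneys gave the reference level only. These correlations chose the genes, so they are given as descriptions, as Pearson's r with its jackknife standard error, without p-values. An injury severity gradient would place the animals in 1 order. Havcr1 varied mainly among the 1 mg/kg animals and Umod mainly among the 3 mg/kg animals, so their pooled r could not be strong either way. That r cannot decide whether the animals stood in 1 order. Among the 3 mg/kg animals the markers gave different orders: the 2 kidneys with the most Umod had the most and the least Havcr1.

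All animals were male Han Wistar rats [Crl:WI(Han)], 8 weeks old, which had 1 intraperitoneal injection of cisplatin in 0.9% saline. Controls received saline alone. Kidneys were taken on days 3, 5, 8 and 26, and RNA came from a cortex-enriched homogenate of each kidney, hybridised to Affymetrix Rat 230 2.0 arrays. The day 8 controls, like each cisplatin group of day 8, have 5 arrays, whereas the treatment protocol gives 6 animals a group. The arrays that took no part in choosing the genes were 18 from cisplatin rats of days 3 and 5 (1 mg/kg on day 5 has 3 arrays, the other groups 5), 10 from cisplatin rats of day 26, and 19 from saline rats of all days.

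Cisplatin is a platinum drug that forms DNA adducts and enters proximal tubule cells through organic cation transporters, and the proximal tubule is the segment it injures first. Injured tubule cells shed KIM-1 and secrete the lipocalin NGAL (Lcn2), clusterin (Clu) and the protease inhibitor TIMP-1 (Timp1). The thick ascending limb reabsorbs salt through the cotransporter NKCC2 (Slc12a1) and is a main source of uromodulin and of epidermal growth factor (Egf) in the kidney. In a bulk homogenate, fewer cells of a type and less RNA per cell cannot be told apart.

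Signals are on the deposited linear scale and follow the order of replicates 1 to 5. Havcr1 read 4.95, 7.33, 10.2, 5.47 and 1.73 in saline kidneys, 912, 32.4, 1085, 32.9 and 17.6 at 1 mg/kg, and 2177, 829, 679.6, 1581 and 1639.5 at 3 mg/kg. All 10 cisplatin kidneys lay above every control, but at 1 mg/kg replicates 1 and 3 were far above replicates 2, 4 and 5. Umod read 2676, 3177, 2502, 2393 and 2606 in saline kidneys, 2424, 2796, 1157, 3075 and 2680.5 at 1 mg/kg and 785, 2.68, 921, 21.6 and 5.37 at 3 mg/kg. At 3 mg/kg replicates 1 and 3 read 785 and 921 while replicates 2, 4 and 5 were at or near the floor of the array, and at 1 mg/kg only replicate 3 lay below all controls. Havcr1 thus spread the animals of 1 mg/kg the most, and Umod those of 3 mg/kg. No subgroups of animals were formed, and a gene picked for its r to a marker repeats the spread of that marker by choice.

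On the log2(signal + 16) scale the SD of Havcr1 was 2.51 at 1 mg/kg and 0.70 at 3 mg/kg, against 0.21 in saline kidneys. The 1 mg/kg animals held 92.7% of the within-dose sum of squares of Havcr1. For Umod the SD was 0.56 at 1 mg/kg, 2.84 at 3 mg/kg and 0.16 in controls, and the 3 mg/kg animals held 96.2% of its sum of squares. Havcr1 and Umod gave r = -0.15 ± 0.23 with each other over the 10 animals (Spearman's rho = -0.30). Their spreads lay mainly in different doses, so this r could not be strong even with a shared order within each dose. It cannot show whether such an order exists. With both doses given equal weight r was -0.40, and without the 2 animals farthest out on Umod, 3 mg/kg replicates 1 and 3, it was -0.56. With so low an r between the markers no gene can pass a limit of 0.8 for both, so that they have separate genes below follows from the limit. The kidney with the most Havcr1 signal, 3 mg/kg replicate 1, was also 1 of the 2 at that dose with the most Umod. The other, replicate 3, had the least Havcr1 of that dose, so there the markers did not give 1 order. At 1 mg/kg replicate 3 had the most Havcr1 and the least Umod.

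**Figure D1:**
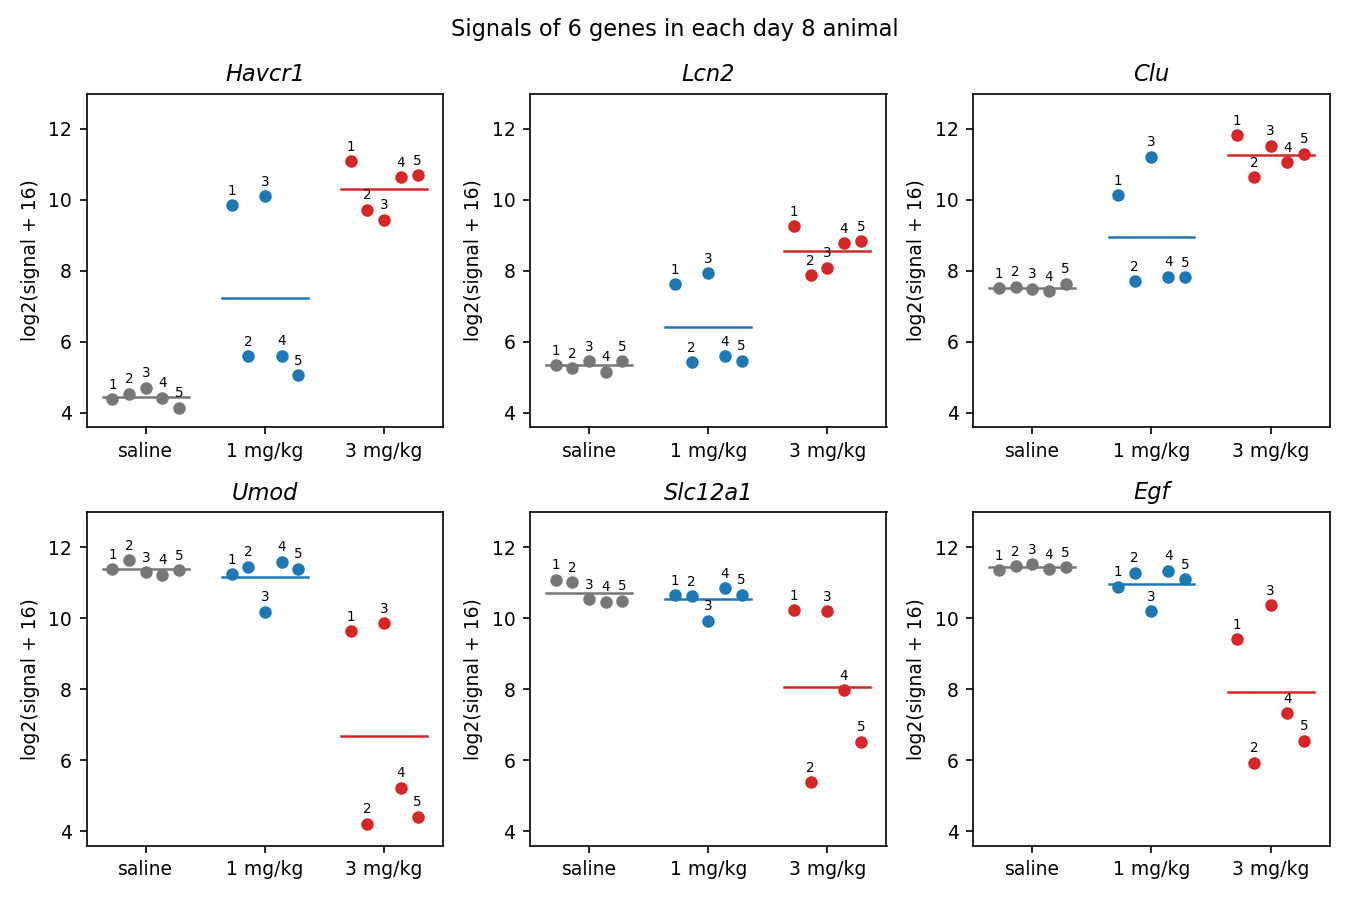
Log2(signal + 16) of 6 genes in each of 15 day 8 kidneys (points, numbered by replicate), with the mean of each group as a line. Havcr1, Lcn2 and Clu separate 1 mg/kg replicates 1 and 3 from replicates 2, 4 and 5, while Umod, Slc12a1 and Egf separate 3 mg/kg replicates 1 and 3 from replicates 2, 4 and 5.

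The same pair of patterns led the spread over all genes. The first principal component of the dose-centred values held 36.7% of the within-dose variance and correlated with Umod at 0.91 and with Havcr1 at 0.13. Of the sum of squares of its scores, 98.4% lay in the 3 mg/kg animals, from 22.7 in replicate 3 and 20.1 in replicate 1 down to -28.9 in replicate 2. The second component held 17.99% and correlated with Havcr1 at 0.92 and with Umod at -0.34. Its highest scores were those of 1 mg/kg replicates 3 (18.97) and 1 (9.78), and 1 mg/kg replicates 2, 4 and 5 had the lowest, between -10.5 and -9.01.

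**Figure D2:**
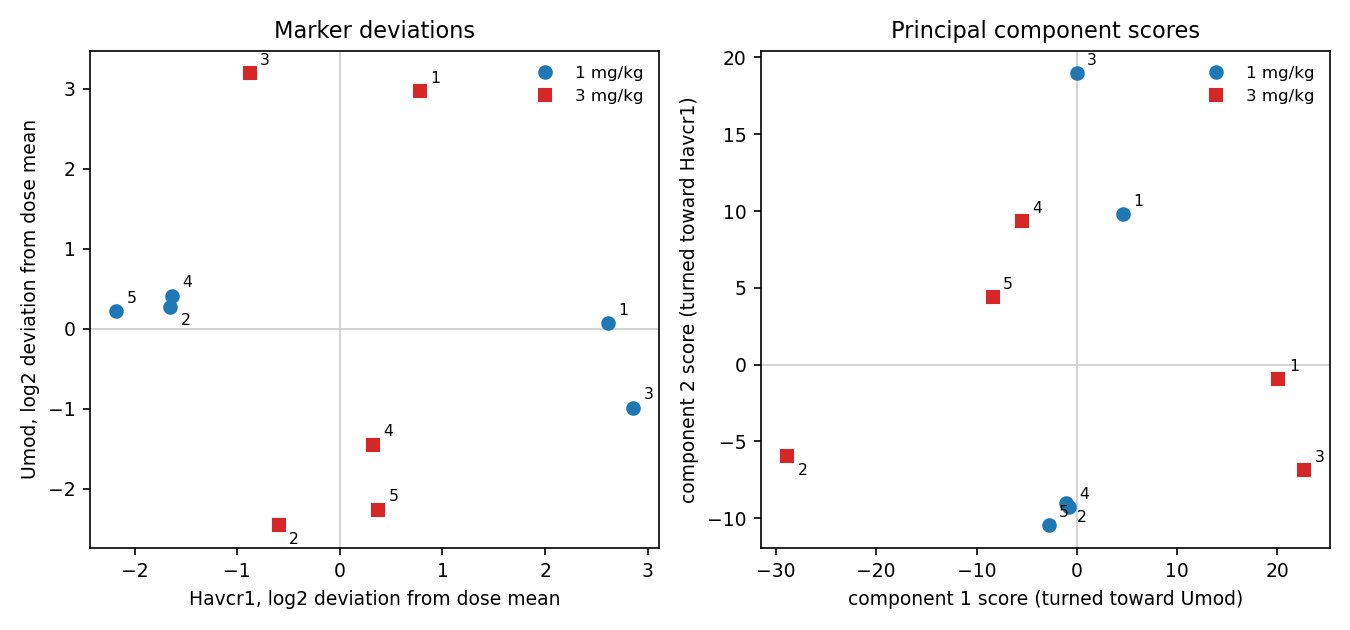
Left, the deviation of Umod from its dose mean against that of Havcr1, both on the log2(signal + 16) scale, in 10 cisplatin kidneys of day 8. Right, scores on the first 2 principal components of all genes, turned so that they rise with Umod and with Havcr1. The 1 mg/kg animals (circles) spread along Havcr1 and component 2, and the 3 mg/kg animals (squares) along Umod and component 1.

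Promoters of 7 genes described below are shown, Havcr1, Lcn2, Timp1 and Anxa2 for the first marker and Umod, Egf and Kap for the second. They were picked to show genes with a motif match and genes without one. Each is the 250 bases before the transcription start in RefSeq on GRCr8, 5′ to 3′ on the gene's own strand, with motif matches in capitals. Havcr1 is at chr10:31629528-31629777 (+ strand), Timp1 at chrX:3771123-3771372 (- strand), Lcn2 at chr3:36081781-36082030 (- strand), Anxa2 at chr8:78986002-78986251 (+ strand), Umod at chr1:183261017-183261266 (- strand), Egf at chr2:220976298-220976547 (- strand) and Kap at chr4:168409033-168409282 (- strand).
Havcr1: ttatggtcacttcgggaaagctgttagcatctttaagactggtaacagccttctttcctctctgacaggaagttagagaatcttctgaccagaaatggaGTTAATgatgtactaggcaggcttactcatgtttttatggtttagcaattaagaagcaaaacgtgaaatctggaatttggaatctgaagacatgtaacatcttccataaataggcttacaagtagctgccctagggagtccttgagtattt
Lcn2: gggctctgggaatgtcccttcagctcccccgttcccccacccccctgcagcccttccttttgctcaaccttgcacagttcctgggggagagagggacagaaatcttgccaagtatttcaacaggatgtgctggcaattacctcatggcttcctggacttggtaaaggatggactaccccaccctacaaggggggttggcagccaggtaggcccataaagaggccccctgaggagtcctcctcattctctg
Timp1: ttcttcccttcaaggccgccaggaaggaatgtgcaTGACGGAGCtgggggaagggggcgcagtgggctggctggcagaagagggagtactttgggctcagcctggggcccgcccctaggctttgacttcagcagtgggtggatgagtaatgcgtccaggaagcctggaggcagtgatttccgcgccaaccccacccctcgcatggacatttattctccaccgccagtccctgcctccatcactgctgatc
Anxa2: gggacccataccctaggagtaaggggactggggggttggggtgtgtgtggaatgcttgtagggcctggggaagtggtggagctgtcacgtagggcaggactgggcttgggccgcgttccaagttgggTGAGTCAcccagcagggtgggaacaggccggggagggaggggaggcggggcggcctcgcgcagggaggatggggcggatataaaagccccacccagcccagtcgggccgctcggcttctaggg
Umod: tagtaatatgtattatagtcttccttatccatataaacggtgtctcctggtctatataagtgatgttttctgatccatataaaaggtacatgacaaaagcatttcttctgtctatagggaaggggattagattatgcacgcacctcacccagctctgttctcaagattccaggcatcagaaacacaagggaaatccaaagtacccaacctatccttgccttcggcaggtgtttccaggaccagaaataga
Egf: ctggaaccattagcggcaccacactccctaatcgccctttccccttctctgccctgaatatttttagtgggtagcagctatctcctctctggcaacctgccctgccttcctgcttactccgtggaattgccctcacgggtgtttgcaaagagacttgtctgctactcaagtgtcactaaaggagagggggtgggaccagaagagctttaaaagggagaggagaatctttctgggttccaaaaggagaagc
Kap: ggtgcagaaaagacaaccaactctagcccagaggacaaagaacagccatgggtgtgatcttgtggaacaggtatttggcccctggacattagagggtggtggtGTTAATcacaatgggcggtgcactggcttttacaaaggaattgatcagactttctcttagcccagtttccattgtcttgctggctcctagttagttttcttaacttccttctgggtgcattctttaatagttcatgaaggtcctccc
The motifs searched on both strands were TGANTCA (AP-1), TGACNNNGC (antioxidant response element), TGACGTCA (cyclic AMP response element) and GTTAAT (part of the recognition sequence of HNF1, a factor of tubule epithelium). The first 2 can overlap, and a single stretch matched both in the promoter of Gstp1, a glutathione transferase gene.

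The capitals mark the HNF1 letters in Havcr1 and Kap, those of the antioxidant response element in Timp1 and those of AP-1 in Anxa2. Lcn2, Umod and Egf had no match in this window, nor had Adra1d, Gtse1 and Tubb6. Among the named genes with r of 0.8 or more to Havcr1, without Havcr1 itself, 21 of 28 had a promoter entry, and 3 of the 21 (14.3%) held the AP-1 letters, 4 (19%) the antioxidant response letters and 2 (9.52%) the HNF1 letters. The shares over 27457 promoters were 6.36%, 10.2% and 6.46%. Among those with r of 0.8 or more to Umod, without Umod itself, 27 of 33 had an entry, and 2 (7.41%), 1 (3.7%) and 4 (14.8%) held the letters of AP-1, of the antioxidant response element and of HNF1. Among the 15 with an entry and r of -0.8 or less to Umod these were 1 (6.67%), 2 (13.3%) and 0. The cyclic AMP response letters were in 0 of these promoters and in 1.7% of all. These are matches of letters, counted without a test.

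With the limit set at an r of 0.8, 250 genes (2.14% of those correlated) varied with Havcr1 in the same direction and 62 (0.531%) in the opposite direction. Just inside and outside the limit were Lrrc32 at 0.8007 and Fst at 0.7999, and on the negative side Slc43a2 at -0.8023 and Gps1 at -0.7985. Of the 250, 16 also had a within-dose SD of at least 0.5 on the log2 scale, and of the 62 only 1, Matn1. Most genes that varied with Havcr1 therefore did so over a small range.

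Lcn2 had the highest r to Havcr1. Its signals were 24.7, 22.5, 28.1, 19.7 and 27.8 in saline kidneys, 181, 27.3, 229, 32.7 and 28.5 at 1 mg/kg, and 595, 219, 257, 425 and 442 at 3 mg/kg. As with Havcr1, 1 mg/kg replicates 1 and 3 stood apart and replicate 1 was the highest of 3 mg/kg, and 9 of 10 cisplatin kidneys were above every control. The r was 0.98 ± 0.018, with a slope of 0.52 ± 0.037 log2 units per log2 unit of Havcr1. It was 0.92 without the 2 animals farthest out on Havcr1, 1 mg/kg replicates 1 and 3. The slope was 0.50 ± 0.032 at 1 mg/kg and 0.78 ± 0.12 at 3 mg/kg.

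Clu read 166, 173, 165, 157 and 184 in saline kidneys, 1113, 194, 2365, 212 and 211 at 1 mg/kg and 3608, 1581, 2931, 2133.5 and 2518 at 3 mg/kg. Here too 1 mg/kg replicates 1 and 3 were far above the other three, and all 10 cisplatin kidneys lay above every control. Its r was 0.93 ± 0.046, but 0.39 without 1 mg/kg replicates 1 and 3, so the value for Clu rests on those animals to a larger extent than that for Lcn2.

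Among genes with a within-dose SD of at least 0.5, the alpha-1D adrenergic receptor gene Adra1d (r = 0.96 ± 0.027) was followed by Gtse1, a microtubule-associated protein of dividing cells (0.93 ± 0.072), Smoc2, a matricellular protein (0.92 ± 0.085), and Timp1 (0.92 ± 0.05). Timp1 signals were 29.5, 23.7, 59.7, 54.2 and 42.2 in saline kidneys, 131, 40, 224, 62.6 and 41.7 at 1 mg/kg and 336, 346, 224, 284 and 307 at 3 mg/kg. The next were the beta-tubulin gene Tubb6 (0.92 ± 0.059), the claudin gene Cldn4 (0.91 ± 0.072), the trophoblast glycoprotein gene Tpbg (0.89 ± 0.082), annexin A2 (Anxa2, 0.88 ± 0.088), Fgl2 (0.86 ± 0.10) and the secreted metalloproteinase gene Adamts1 (0.85 ± 0.13). Without 1 mg/kg replicates 1 and 3 these values were 0.78 for Adra1d, 0.61 for Tubb6, 0.57 for Anxa2, 0.46 for Timp1 and 0.18 for Gtse1. Gtse1 and Tpbg were dim, with mean signals of 19.3 and 18.4 over the cisplatin kidneys described here, near the added offset of 16. The mean signal of Adra1d was 29.0. The r of Gtse1, Tpbg and Adra1d therefore rests on low signals. Anxa2 read 508, 215, 515, 227 and 247 at 1 mg/kg and 864, 777, 412, 601 and 724 at 3 mg/kg, against 220.1 to 261 in controls. Matn1, which encodes the matrix protein matrilin 1, gave r = -0.82 ± 0.15, and its signals were scattered in controls (13.5 to 134).

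Of 21 tubular injury genes other than Havcr1, 8 had r of 0.8 or more to Havcr1 and 0 had -0.8 or less (all genes 2.14% and 0.531%). Their median r was 0.70, beside 0.07 over all genes tested, and 19 of 21 were above 0, where all genes had 56.2%. Beside Lcn2, Clu, Timp1 and Anxa2 the 8 were ceruloplasmin (Cp, 0.94), the hyaluronan receptor Cd44 (0.93), the transcription factor Sox4 (0.91) and the TWEAK receptor gene Tnfrsf12a (0.84). Osteopontin (Spp1) gave 0.74 ± 0.23. The keratin genes Krt8 and Krt18, by contrast, had r of 0.34 and 0.18 to Havcr1 and of -0.86 and -0.82 to Umod. To Umod the injury list had a median r of -0.0027, and 2 members, the trefoil factor gene Tff3 (0.92) and the cystatin C gene Cst3 (0.86), passed in the positive direction.

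The 3 fibrinogen chains had r of 0.79 (Fga), 0.81 (Fgb) and 0.83 (Fgg) to Havcr1, and of -0.62, -0.63 and -0.50 to Umod. Fgb signals were 10.6, 6.96, 10.2, 8.33 and 8.83 in saline kidneys, 48.1, 11.6, 86.7, 8.77 and 12 at 1 mg/kg and 134, 231, 64.9, 235 and 176 at 3 mg/kg. Fgb was thus high in 1 mg/kg replicates 1 and 3 and, among the 3 mg/kg kidneys, highest in replicates 2, 4 and 5, those with the least Umod. Without 1 mg/kg replicates 1 and 3 the r of Fgb to Havcr1 was 0.35.

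Genes regulated by p53, which is activated by DNA damage, did not vary as a block with Havcr1. Of 20 measured, 1 passed the limit (all genes 2.14%), Phlda3, an inhibitor of AKT signalling (0.93 ± 0.058). The median was -0.0020 with 10 above 0 (all genes 56.2%). Cdkn1a, the cell cycle inhibitor p21, read 35.8, 43.4, 39.8, 67.8 and 65.6 in saline kidneys, 224, 94.9, 197, 146 and 109.5 at 1 mg/kg and 285, 381, 251, 574 and 547 at 3 mg/kg, above every control in 10 of 10 animals. Its r was 0.67 ± 0.17 to Havcr1 and -0.68 ± 0.20 to Umod. To Umod the p53 list had a median of -0.43, with Perp at -0.88, the growth factor gene Gdf15 at -0.78 and the sestrin gene Sesn1 at 0.84. Of 20 immediate early genes, 17 had an r to Havcr1 above 0 (all genes 56.2%) and 2 passed the limit (all genes 2.14%), Ier5 (0.86) and Egr2 (0.81).

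All 26 measured fibroblast and matrix genes had an r to Havcr1 above 0, with a median of 0.65, and 4 passed the limit. Of all genes, 56.2% were above 0 and 2.14% passed. The 4 fibroblast and matrix genes were the PDGF receptor gene Pdgfrb (0.95 ± 0.021), the basement membrane collagen Col4a1 (0.89 ± 0.09), the lysyl oxidase-like gene Loxl1 (0.88 ± 0.074) and Tgfb1 (0.87 ± 0.11). Pdgfrb signals were 66.4, 62.7, 45.2, 48.1 and 54.7 in saline kidneys, 91.7, 51.2, 79.5, 50.1 and 50.1 at 1 mg/kg and 76.2, 63.4, 69.2, 82.3 and 72.3 at 3 mg/kg. Replicates 1 and 3 of 1 mg/kg were the highest of their group, and only replicate 2 of 3 mg/kg overlapped the controls. The fibrillar collagen Col1a1 gave 0.73 ± 0.25. Without 1 mg/kg replicates 1 and 3 the r of Pdgfrb was 0.70, that of Col4a1 0.15, and those of Loxl1 (-0.056) and Tgfb1 (-0.0905) turned negative.

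Genes of dividing cells were mostly positive to Havcr1 as well. Of 25 mitosis genes 24 had an r to Havcr1 above 0, with a median of 0.56, and 0 passed the limit, beside 56.2% and 2.14% of all genes. Of 23 DNA replication genes 22 were above 0, with a median of 0.60, and 2 passed, the licensing factor Cdt1 (0.96 ± 0.032) and the helicase subunit Mcm4 (0.84 ± 0.15). The proliferation marker Mki67 read 91, 36.4, 101, 52.9 and 51.4 at 1 mg/kg and 114, 61.9, 117, 60.5 and 69.3 at 3 mg/kg, against 40.7, 36.7, 68.3, 38.9 and 40 in saline kidneys. It was highest in replicates 1 and 3 of each dose. Among mitosis genes the exception was Kif11, a spindle motor, with r of -0.06 to Havcr1 and -0.89 to Umod.

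Macrophage and myeloid genes were above 0 in 19 of 19 (all genes 56.2%), with a median r of 0.56 to Havcr1, and 1 passed the limit, the galectin gene Lgals3 (0.81 ± 0.14), which tubule cells can also express. A count of 1 in 19 is near the share of all genes, 2.14%. Their summed signal ran from 5146 to 5486 in saline kidneys, from 5307 to 7928 at 1 mg/kg and from 6449 to 8623 at 3 mg/kg. The lysosomal marker Cd68 gave 0.66 ± 0.33, and -0.14 without 1 mg/kg replicates 1 and 3. The summed signal of the fibroblast and matrix list ran from 7661 to 8285 in controls, from 6764 to 11174 at 1 mg/kg and from 9244 to 11965 at 3 mg/kg. No member of either list was at a signal of 0. How far the number of these cells contributed to the genes that vary with Havcr1 was not tested.

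Oxidative phosphorylation genes varied in the opposite direction to Havcr1 in 28 of 28, with a median r of -0.66. Of all genes 43.8% were below 0. The complex I subunit Ndufs1 (-0.86 ± 0.093) and the cytochrome oxidase subunit Cox4i1 (-0.85 ± 0.13) passed the limit. The sizes were small: the slope of Ndufs1 was -0.063 ± 0.019 and that of Cox4i1 -0.039 ± 0.016 log2 units per log2 unit of Havcr1. Ndufs1 signals were 1397, 1846, 1615, 1788 and 1891 at 1 mg/kg and 1584, 1717, 1615, 1514 and 1571 at 3 mg/kg, within or near the control range of 1530.2 to 1828.5. To Umod the list had a median of -0.15.

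**Figure D3:**
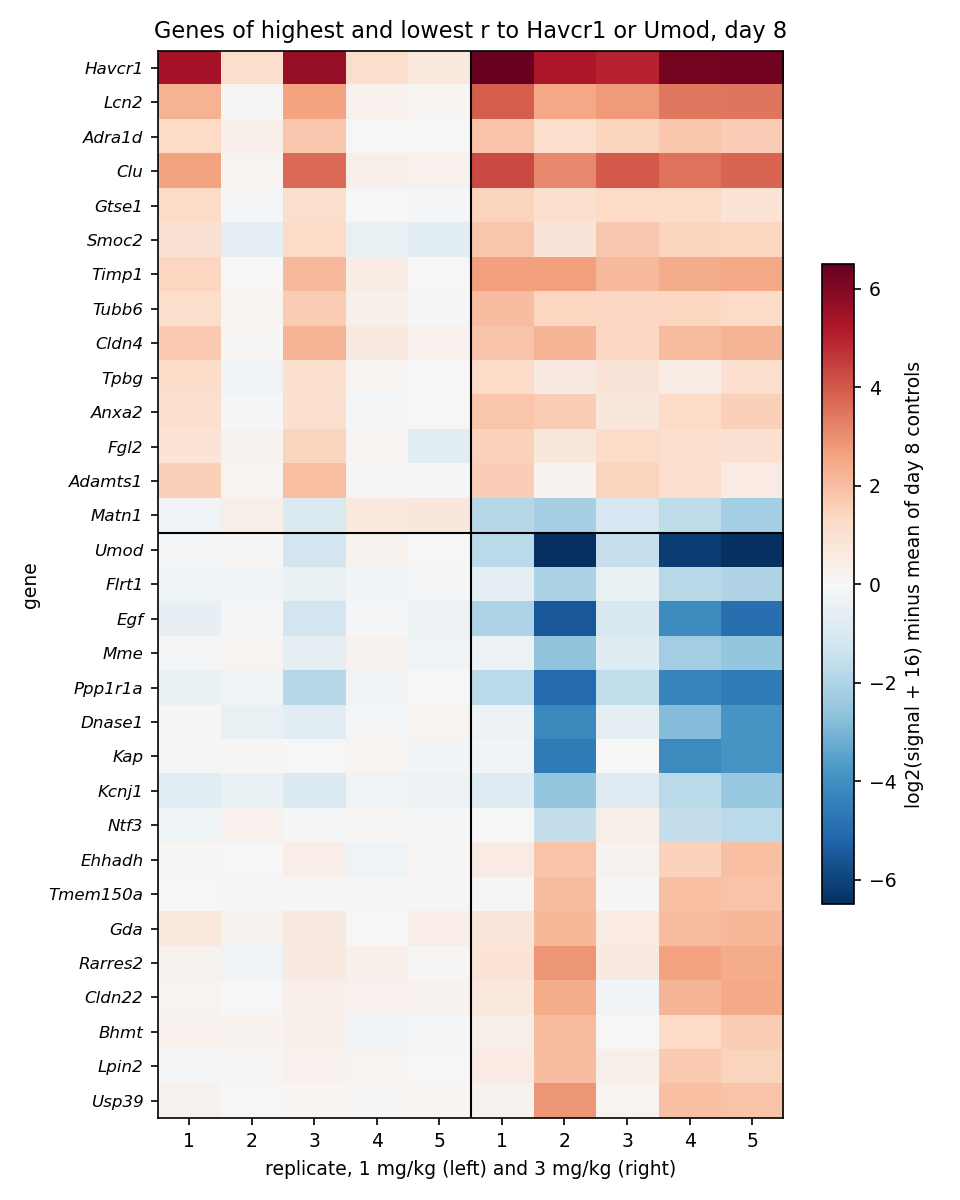
Log2(signal + 16) minus the mean of the day 8 controls for Havcr1 and the 13 genes named with it (above the line) and for Umod and the 16 genes named with it (below), in 10 cisplatin kidneys of day 8. The upper block separates 1 mg/kg replicates 1 and 3 from replicates 2, 4 and 5, and the lower block separates 3 mg/kg replicates 2, 4 and 5 from all other animals. The genes were chosen for their r to the markers, so the separation within a dose follows largely from that choice.

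With Umod, 458 genes (3.92%) had an r of 0.8 or more and 379 (3.24%) of -0.8 or less. Nearest inside the limit were Pspc1 at 0.80 and Exosc2 at -0.80, and nearest outside it Nme7 at 0.7998 and Cox7a2l at -0.7994. A within-dose SD of at least 0.5 was found in 60 of the 458 and in 35 of the 379.

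Thick ascending limb genes were nearest to Umod. Of 14 other than Umod, 11 had r of 0.8 or more (all genes 3.92%), and their median was 0.87, beside 0.09 over all genes tested. Egf read 2624.5, 2828, 2955.5, 2652 and 2773 in saline kidneys, 1884, 2492, 1165, 2597 and 2183 at 1 mg/kg and 669, 45, 1314, 145 and 78.1 at 3 mg/kg. All 10 cisplatin kidneys were below every control, and 3 mg/kg replicates 2, 4 and 5 were the lowest. Its r was 0.98 ± 0.013, with 0.95 without 3 mg/kg replicates 1 and 3. The slope on Umod was 0.81 ± 0.23 at 1 mg/kg and 0.66 ± 0.045 at 3 mg/kg.

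Slc12a1 read 2167, 2056.5, 1482, 1406 and 1435 in saline kidneys, 1589, 1559, 962, 1839.5 and 1613 at 1 mg/kg and 1189, 25.8, 1159.6, 236 and 76.2 at 3 mg/kg. Replicates 1 and 3 of 3 mg/kg were again far above replicates 2, 4 and 5, and 1 mg/kg replicate 3 was again the lowest of its dose. The r was 0.95 ± 0.048, and 0.80 without 3 mg/kg replicates 1 and 3. The potassium channel gene Kcnj1 (ROMK), whose channel returns potassium to the lumen of this segment, gave 0.96 ± 0.035, the phosphatase inhibitor gene Ppp1r1a 0.97 ± 0.03, and the paracellular channel genes Cldn16 and Cldn10 0.93 and 0.92. To Havcr1 the list had a median of -0.14 and 0 members past the limit.

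Segments further along followed with lower values. Of 13 distal convoluted and connecting tubule genes, 3 had r of 0.8 or more to Umod (all genes 3.92%), with a median of 0.73. These were the calcium-binding protein gene Calb1 (0.96 ± 0.047), the sodium-calcium exchanger gene Slc8a1 (0.95 ± 0.04) and the kinase gene Wnk1 (0.91 ± 0.072). Calb1 read 1921, 2828, 2097, 2841 and 2904 at 1 mg/kg and 1610.4, 571, 1565, 634 and 624 at 3 mg/kg, against 2218 to 2881 in controls. The calcium channel gene Trpv5, also in that list, had r = 0.032. Of 14 collecting duct genes 3 passed in the positive direction (all genes 3.92%). They were the sodium channel subunit Scnn1g (0.87), Hsd11b2 (0.85), which inactivates glucocorticoid, and the mineralocorticoid receptor Nr3c2 (0.84). The water channel gene Aqp4 passed in the negative direction (-0.90), but its r was 0.604 without 3 mg/kg replicates 1 and 3 and -0.093 with the doses weighted equally. The list's median was 0.55.

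**Figure D4:**
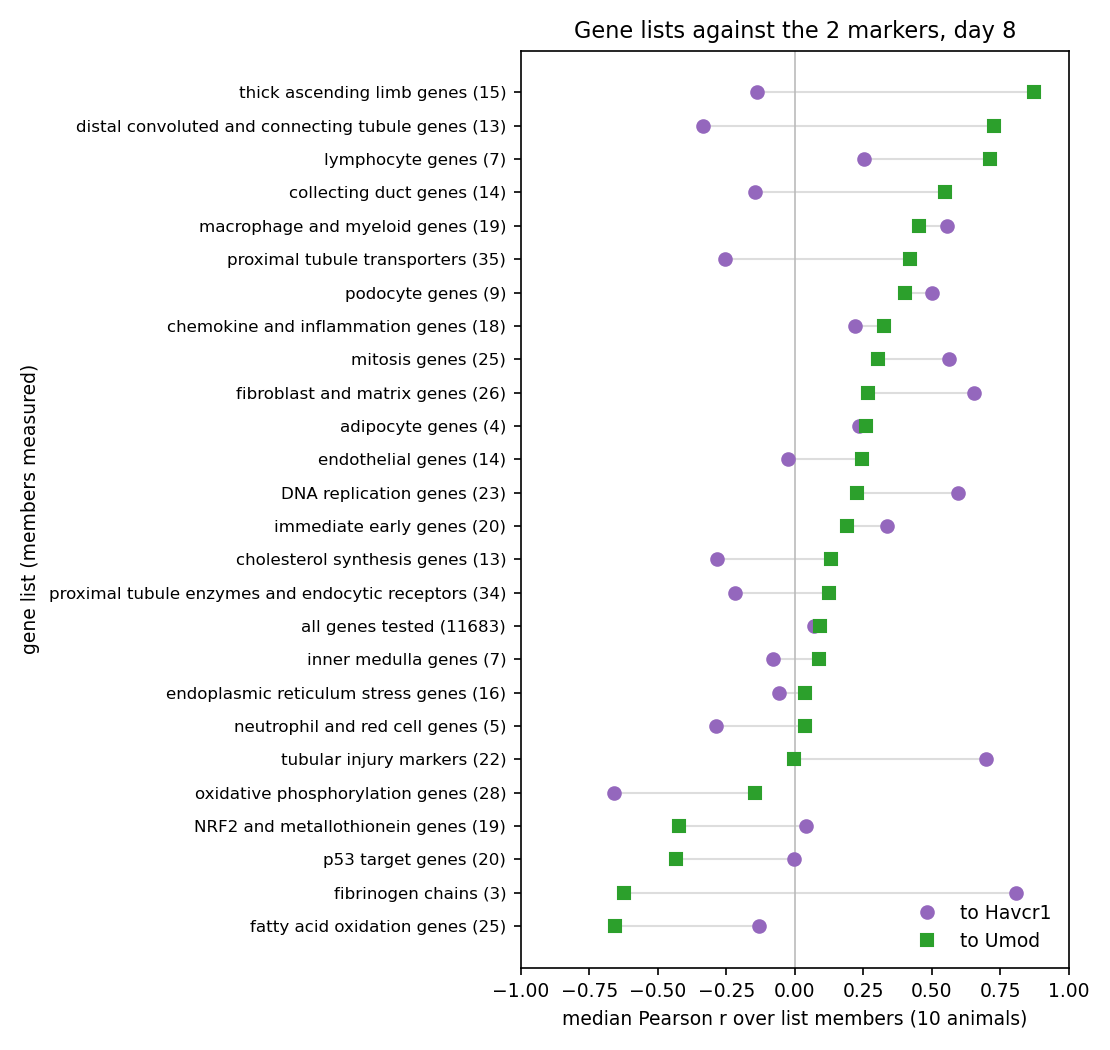
Median Pearson r of each of 25 gene lists, and of all genes tested, to Havcr1 (circles) and to Umod (squares) over 10 cisplatin kidneys of day 8 after removal of the dose means. Tubular injury genes lie at 0.70 for Havcr1 and near 0 for Umod, and thick ascending limb genes at 0.87 for Umod and -0.14 for Havcr1.

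Proximal tubule genes were divided on Umod. Of 35 transporters 7 had r of 0.8 or more and 3 of -0.8 or less (all genes 3.92% and 3.24%), with a median of 0.42. The glucose transporter SGLT2 gene Slc5a2 (0.98 ± 0.013) and the amino acid transporter gene Slc7a13 (0.96 ± 0.03) were among those in the same direction, and the facilitated glucose transporter gene Slc2a2 (-0.91), the phosphate transporter gene Slc20a2 (-0.92) and the efflux pump gene Abcc2 (-0.88) in the opposite one. Slc5a2 read 751, 747, 925, 863 and 822 in saline kidneys, 743, 855, 718, 801 and 822 at 1 mg/kg and 537, 206, 591, 255 and 253 at 3 mg/kg. Slc22a2, the organic cation transporter of the basolateral membrane, gave 0.79 ± 0.13, with signals of 612, 613, 291, 802 and 478 at 1 mg/kg and 288, 143, 283, 151 and 144 at 3 mg/kg, against 473 to 1147 in controls.

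Of 34 proximal tubule enzymes and receptors, 8 varied with Umod and 5 against it past the limit (all genes 3.92% and 3.24%). Mme, the brush border peptidase neprilysin, read 398, 595, 381, 290.3 and 525 in saline kidneys, 392, 483, 276, 508 and 358 at 1 mg/kg and 321, 57, 242, 77.6 and 61.2 at 3 mg/kg (r = 0.97 ± 0.015). The meprin gene Mep1b gave 0.95 ± 0.031. Kap, the kidney androgen-regulated protein gene, read 3436, 3906, 4202, 3845 and 4269.6 in saline kidneys, 3609, 4089, 3809, 4481.5 and 3419 at 1 mg/kg and 3449, 146, 3987, 206 and 261 at 3 mg/kg. Replicates 1 and 3 of 3 mg/kg were at the level of controls, and replicates 2, 4 and 5 were below it. The r of Kap was 0.97 ± 0.03, but 0.24 without 3 mg/kg replicates 1 and 3. The endocytic receptor genes Lrp2 and Cubn had r of 0.25 and -0.48, and the signals of Lrp2 ran from 2273 to 3519 at 3 mg/kg and from 2837.5 to 3251 in controls.

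To Havcr1 the proximal tubule lists had medians of -0.25 and -0.22. The amino acid transporter gene Slc7a7 (-0.81) passed the limit in the negative direction, as did Miox (-0.83), which cleaves inositol, and the tryptophan pathway enzyme gene Kynu (-0.83).

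Among genes with a within-dose SD of at least 0.5, the others with the highest r to Umod were Flrt1, a cell adhesion receptor (0.99 ± 0.0028), the secreted nuclease gene Dnase1 (0.97 ± 0.021) and the neurotrophin gene Ntf3 (0.96 ± 0.03). Dnase1 read 2305.5, 2214, 1705, 1874 and 2403 in saline kidneys, 2194, 1465, 1294, 1895 and 2371 at 1 mg/kg and 1642, 100.01, 1334.5, 279.9 and 132 at 3 mg/kg. As with Kap, 3 mg/kg replicates 1 and 3 stood near or just below the controls and the other three far below.

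Genes that were high where Umod was low included several of fatty acid oxidation. Of 25 measured, 7 had r of -0.8 or less and 1 (Acox2, 0.88) of 0.8 or more (all genes 3.24% and 3.92%), with a median of -0.66. Ehhadh, the peroxisomal bifunctional enzyme, read 544, 519, 511, 632 and 535 in saline kidneys, 586, 562, 747, 452 and 587 at 1 mg/kg and 785, 2008.5, 651, 1599 and 2136 at 3 mg/kg (r = -0.98 ± 0.017). Its 3 highest values were in 3 mg/kg replicates 2, 4 and 5, and its slope on Umod was -0.40 ± 0.11 at 1 mg/kg and -0.27 ± 0.022 at 3 mg/kg. Acot2 (-0.97), Decr1 (-0.92), Eci1 (-0.90) and the trifunctional protein subunit Hadha (-0.90) were among the 7. To Havcr1 the list had a median of -0.13.

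Tmem150a, a membrane protein gene, read 559, 568, 537, 582 and 583 in saline kidneys, 579.9, 537, 600.4, 588 and 538 at 1 mg/kg and 590.4, 2389.9, 590.4, 2271 and 2059.9 at 3 mg/kg. The 3 mg/kg replicates 2, 4 and 5 stood far above the other 12 kidneys, with no value between. The r was -0.97 ± 0.024, and -0.33 without 3 mg/kg replicates 1 and 3. The splicing gene Usp39 had the same shape, with 177, 154, 162, 158 and 163 at 1 mg/kg and 179, 1211, 168, 631 and 583 at 3 mg/kg against 136 to 159 in controls (r = -0.94 ± 0.056). Also high in those 3 kidneys were the chemerin gene Rarres2 (-0.96 ± 0.034), the guanine deaminase gene Gda (-0.96 ± 0.036), the methyltransferase gene Bhmt (-0.95 ± 0.033), the lipin gene Lpin2 (-0.94 ± 0.054) and the claudin gene Cldn22 (-0.96 ± 0.024). Of the genes named for their r to either marker, 4 had further kept probe sets, and all 6 of these had the same sign of r.

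Of 19 antioxidant genes, 1 passed on Havcr1 and 2 on Umod. Of all genes 2.67% and 7.16% passed in either direction, so these small counts are near the shares of all genes. Gstp1 had r = 0.82 ± 0.15 to Havcr1, but -0.0991 without 1 mg/kg replicates 1 and 3, while Nqo1 (-0.82 ± 0.13) and the glutamate-cysteine ligase gene Gclc (0.91 ± 0.067) passed on Umod in opposite directions. Of 16 endoplasmic reticulum stress genes, 4 passed with Umod (all genes 3.92%), among them Sdf2l1 (0.98) and Psat1 (0.93), and Atf4 passed against it (-0.85). With the doses weighted equally the 4 gave 0.79 (Sdf2l1), 0.82 (Psat1), 0.585 (Creld2) and 0.23 (Hsp90b1). To Umod the list had a median r of 0.038, with 8 of 16 above 0 (all genes 55.6%). Herpud1, of protein degradation at the endoplasmic reticulum, passed against Havcr1 (-0.83). Of 13 cholesterol synthesis genes 0 passed the limit for either marker.

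Other cell types were followed by their own lists. The 7 measured lymphocyte genes, of 18 listed, had a median r of 0.71 to Umod (all genes 0.09), and Nkg7 of cytotoxic cells passed (0.91 ± 0.054). Their summed signal ran from 125 to 146 in saline kidneys, from 139.7 to 204 at 1 mg/kg and from 77.1 to 237 at 3 mg/kg, and the T cell receptor gene Cd3e read 5.37 to 10.9 in controls and 7.63 to 15.8 at 3 mg/kg. For the 4 members with the largest r to Umod, equal weight of the doses gave 0.48 (Nkg7), 0.028 (Ccl5), 0.081 (Lck) and 0.12 (Cd3e). Among 5 neutrophil and red cell genes, S100a8 (-0.82 ± 0.17) and S100a9 (-0.78 ± 0.11) were high where Umod was low, with S100a9 at 17.3, 216, 16.6, 47.7 and 54.8 in the 3 mg/kg kidneys and 9.44 to 30.2 in controls. Summed signals of that list ran from 1312 to 2519 in controls, from 1009 to 2443 at 1 mg/kg and from 768 to 2431 at 3 mg/kg. Of 18 chemokine and inflammation genes, 1 passed on Havcr1 (Icam1, 0.86), and Cxcl12 (0.88) and Cx3cl1 (0.83) passed on Umod. Such small counts are near the shares of all genes, 2.67% on Havcr1 and 7.16% on Umod in either direction.

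Of 14 endothelial genes only Cldn5 passed on Umod (0.80), where 7.16% of all genes passed in either direction. Of 9 podocyte genes and 4 adipocyte genes 0 passed on either marker. Summed signals of these lists at 3 mg/kg ran from 1944 to 2294 (endothelial), from 1974 to 2298 (podocyte) and from 181 to 238 (adipocyte), against 2276 to 2429, 1641 to 2024 and 177 to 302 in controls. The inner medulla list overlapped other segments in Aqp4 and Slc5a3. Its defining urea transporter gene Slc14a2 was dim in all 15 kidneys of day 8, at 2.44 to 9.4 in controls and 7.57 to 12.7 at 3 mg/kg. The proximal tubule gene Slc34a1 was at 3087 to 3735 in controls and 3839 to 4031 at 3 mg/kg. No member of these lists was at 0, and the part of cell composition in the results was not tested.

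Whether a gene's slope on a marker differed between the doses was tested in limma with an interaction term, adjusted by Benjamini-Hochberg over 11682 genes. For Havcr1, 0 genes passed (320 at an unadjusted p under 0.05, smallest adjusted p = 0.999). That count was 410 without 3 mg/kg replicate 3, which had the lowest Havcr1 signal of its dose, and 1 without 3 mg/kg replicate 1. For Umod, 4 genes passed with a higher slope at 3 mg/kg and 4 with a lower one (0.0342% of genes each; 1252 at an unadjusted p under 0.05), all at an adjusted p of 0.0241.

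Those with the higher slope at 3 mg/kg were fibronectin (Fn1), cyclin A2 (Ccna2), the chemokine gene Ccl2 and the pocket protein gene Rbl1. Fn1 read 345, 247, 548, 241 and 249.8 at 1 mg/kg and 697, 433, 611, 504 and 449.9 at 3 mg/kg. Its slope on Umod was -0.84 ± 0.11 at 1 mg/kg and 0.096 ± 0.022 at 3 mg/kg. At 1 mg/kg it was thus highest in replicate 3, the kidney with the least Umod of that dose, whereas at 3 mg/kg the 2 kidneys with the most Umod had the highest values. The slope of Ccna2 was -0.93 ± 0.13 at 1 mg/kg and 0.029 ± 0.025 at 3 mg/kg, and that of Ccl2 was -0.79 ± 0.12 at 1 mg/kg and 0.095 ± 0.023 at 3 mg/kg. Those with the lower slope were RT1-CE10 and RT1-Bb of the major histocompatibility complex, the cytochrome P450 gene Cyp2c11 and Gcat, an enzyme of threonine breakdown. Cyp2c11 read 64.5, 73.3, 11.3, 189.5 and 85.1 at 1 mg/kg and 11.2, 5.99, 13.3, 6.53 and 7.58 at 3 mg/kg, against 55.7 to 214 in controls. Its slope on Umod was 1.74 ± 0.22 at 1 mg/kg and 0.06 ± 0.044 at 3 mg/kg. It was lowest in replicate 3 at 1 mg/kg, and all 3 mg/kg kidneys lay below the controls, with replicates 1 and 3 the highest of them. The 8 calls rest on few animals: the count was 49 without 1 mg/kg replicate 1, 15 without 3 mg/kg replicate 2, 2 without 1 mg/kg replicate 2, 1 without 1 mg/kg replicate 4, and 0 without any of 1 mg/kg replicates 3 and 5 and 3 mg/kg replicates 1 and 3.

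The arrays of other days, which played no part in choosing the genes, were tested for slopes on the same markers with group means removed. On days 3 and 5, limma called 0 genes on Havcr1 (1180 at an unadjusted p under 0.05, smallest adjusted p = 0.141) and 0 on Umod (562, 0.472). On day 26 it called 0 on Havcr1 (690, 0.0603) and 0 on Umod (698, 0.561). The lowest adjusted p on day 26, that on Havcr1, was shared by Car3, a carbonic anhydrase gene (slope 0.77 ± 0.10), and Gpnmb, a lysosomal glycoprotein gene (0.43 ± 0.061). On Umod, day 26 slopes were 0.99 ± 0.22 (Egf), 1.03 ± 0.26 (Ppp1r1a), 1.15 ± 0.65 (Mme) and 0.67 ± 0.21 (Kap). Other genes named for the highest day 8 r gave 0.34 ± 0.39 (Kcnj1), 0.21 ± 0.30 (Flrt1), 0.15 ± 0.39 (Dnase1) and -0.49 ± 0.32 (Ntf3). These slopes are imprecise, and the 0 calls do not show that a relation was absent. In saline kidneys 0 genes were called on Havcr1 (718 unadjusted, 0.310). On Umod 8 genes were called with a positive slope (0.0685% of genes) and 2 with a negative one (0.0171%). The positive ones included Ggh (slope 1.04 ± 0.16, adjusted p = 0.0142), Gclc (1.99 ± 0.30, 0.0142), Dhrs7l1 (2.54 ± 0.42, 0.0267) and Gc (5.17 ± 0.89, 0.0356), and the negative ones were Hoxd4 (-1.42 ± 0.25, 0.0356) and Igtp (-1.04 ± 0.19, 0.0374) in limma. The count of 10 was 0 without any of saline day 8 replicates 2 and 4 or saline day 26 replicates 2 and 4. It was between 2 and 4 without saline day 3 replicate 3, day 5 replicate 5, day 8 replicate 3 or day 26 replicate 3, and 20 or 19 without day 3 replicate 5 or day 8 replicate 1.

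The genes chosen on day 8 can still be read in those arrays, as a description. Of the 250 that varied with Havcr1 on day 8, 73.2% had a positive slope on Havcr1 on days 3 and 5, where all genes had 52.2%, and 24.4% had an unadjusted p under 0.05, where all genes had 10.1%. On day 26 the shares with a positive slope were 81.6% and 51.9%. In saline kidneys they were 37.6% and 47.4%. Of the 458 that varied with Umod, 57.2% had a positive slope on Umod on days 3 and 5 (all genes 47.3%), 61.6% on day 26 (49.8%) and 49.3% in saline kidneys (45.3%). The genes chosen for a negative r stood at 38.7%, 35.5% and 67.7% for Havcr1 (62 genes), and for Umod (379 genes) at 45.9%, 45.6% and 45.6%, near the shares of all genes.

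**Figure D5:**
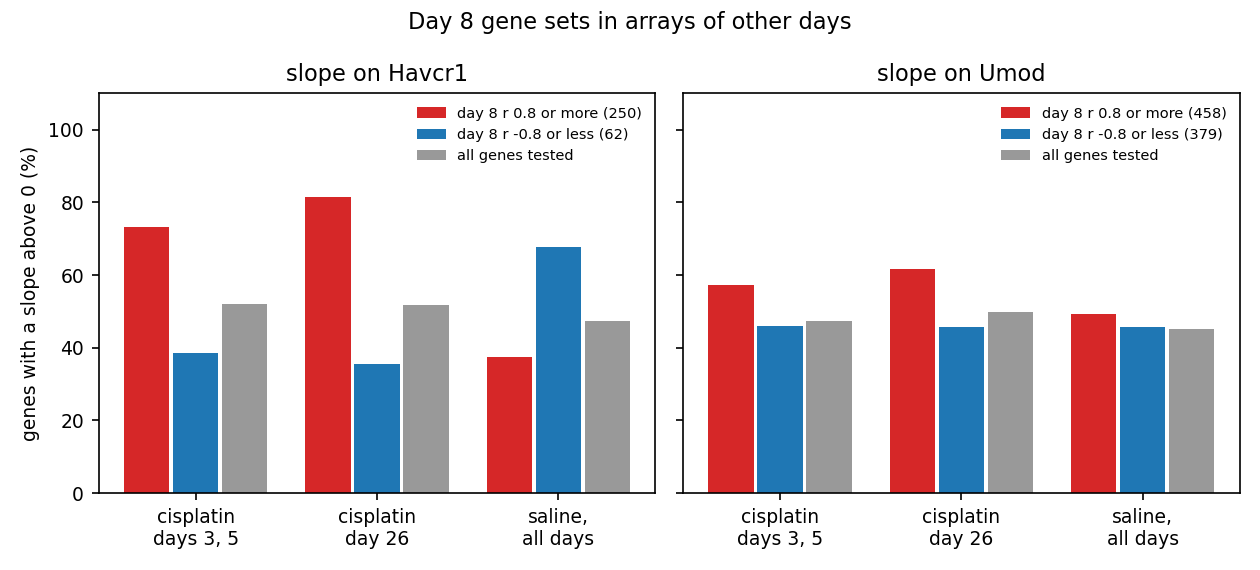
Share of genes with a slope above 0 on Havcr1 (left) or Umod (right) in 18 cisplatin kidneys of days 3 and 5, 10 of day 26 and 19 saline kidneys, for the genes chosen on day 8 at each end and for all genes tested. The genes that varied with Havcr1 on day 8 stand at 73.2% and 81.6% in the cisplatin kidneys, and those that varied with Umod at 57.2% and 61.6%.

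Single relations of Havcr1 with 8 genes were also tested in those arrays with 100000 permutations within groups, two-sided, adjusted over 24 relations. On days 3 and 5 (18 kidneys) Lcn2 gave r = 0.60 (permutation p = 0.00173, adjusted p = 0.0367) and rho = 0.66 (p = 0.00377, adjusted p = 0.0508 by permutation), and r was 0.60 without the 2 kidneys farthest out on Havcr1. Slc12a1 gave r = 0.62 (permutation p = 0.00306, adjusted p = 0.0367) and rho = 0.67 (adjusted p = 0.0508 by permutation), a positive relation that the day 8 kidneys did not have (-0.07). The difference between the days was not tested. The count of 2 calls was 1 without any of 1 mg/kg day 3 replicate 2 and 3 mg/kg day 3 replicates 1, 2 and 3, and 0 without any of 8 other kidneys. These were replicate 4 of 1 mg/kg day 3, replicate 1 of 1 mg/kg day 5, replicates 4 and 5 of 3 mg/kg day 3, and replicates 1, 2, 3 and 5 of 3 mg/kg day 5. On day 26, Lcn2 (r = 0.87, adjusted p = 0.0863), Clu (r = 0.87, adjusted p = 0.0863) and Spp1 (r = 0.82, adjusted p = 0.121) did not pass in the permutation test, and r of Spp1 was 0.39 without the 2 farthest. Havcr1 with Umod gave r = -0.16 on days 3 and 5 and -0.47 on day 26, with adjusted p = 0.682 and 0.388 by permutation. In saline kidneys 0 of 8 passed, and the lowest adjusted p over r was 0.388.

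Array quality was compared with the markers by exact permutation within dose (14400 reassignments, two-sided, 8 relations), and 0 relations passed. The lowest p for each marker was that of Havcr1 with the array median (r = 0.39, rho = 0.49, exact p = 0.0730, adjusted p = 0.469) and of Umod with the array median (r = 0.53, rho = 0.38, exact p = 0.251, adjusted p = 0.669). The ratio of 3' to 5' actin probe sets was 8.58 in 1 mg/kg replicate 1, the highest of the 57, and between 4.52 and 6.01 in the other 9 cisplatin kidneys. The GAPDH ratio of that kidney (1.66) was also the highest of the 10. With replicate 3 it is 1 of the 2 kidneys of 1 mg/kg with high Havcr1. Values of r to Havcr1 without these 2 are given above for some of the genes only. They are not given for others, such as Smoc2, Cldn4, Cd44, Phlda3 and Cdt1. The array of 3 mg/kg replicate 2 had the lowest median signal of the 57 (20.3) and the largest share of probe sets under a signal of 16 among the 10 (46.0%). Without it, the r of Egf to Umod stayed between 0.97 and 0.99, the range over all single animals left out, and that of Slc12a1 between 0.93 and 0.99.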

How the data were processed

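The deposited values are intensity values on a linear scale, 1 per probe set and array. The tool named per the submitters' processing notes is MAS5 (version not given in the sources used here). Trimmed mean signal was 99.99 on every array. Of 31099 probe sets, 57 controls were left out, 20826 had 1 gene symbol, 436 several and 9780 none. Names were updated through the GRCr8 RefSeq table. Promoter sequences are RefSeq's.

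Log2(signal + 16) was used, which compresses dim genes. Probe sets above the 40th percentile on at least 3 arrays were kept, with the brightest per gene, giving 11683 genes. Correlations were over dose-centred values. Slopes, dose interactions and adjusted p-values came from limma 3.58.1 in R 4.3.3 (moderated variance with trend, two-sided, Benjamini-Hochberg, threshold 0.05). Titles call arrays biological replicates. Within groups, arrays correlated at 0.961 to 0.993, so none was treated as a repeat. The number of arrays limits the precision.

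Named genes were the 12 highest and lowest r to Havcr1 and the 8 highest and lowest to Umod with an SD of at least 0.5, the 4 smallest p in each direction of each test, up to 4 per list for 25 lists, and 14 set genes. Others named from a list are members with r past 0.8 or chosen after their values were seen. Members and lists were chosen with earlier results of these data known. In simulated data for the dose interaction over 11682 genes, a change of 1 log2 unit per SD was recovered in 96% of genes for Havcr1 and 95% for Umod, and one of 0.5 in 68% and 65%. For days 3 and 5 and day 26, at least 98% of either size were recovered. The SD was that of the marker in those arrays, so a slope of the day 8 size could be a smaller change per SD. The 0 calls on those days therefore do not show that slopes of that size were absent. In the interaction the change was put into 1 dose, 3 mg/kg for Havcr1 and 1 mg/kg for Umod, where the marker varied least. The SD was that of the marker there, 0.70 and 0.56, so the change per log2 unit of the marker was larger than that per SD. Noise was drawn independently for each gene. Alternatives covered offset, scaling, filter, probe sets, variance model, replicate number, dose weighting and arrays left out.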

Additional observations from a re-analysis of the deposited data

Results flagged for a closer look

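Within groups of 5, a value that stood apart by Dixon's ratio (gap over range) was found in 3 of 51 group values looked at, where chance gives about 1 in 20. At 1 mg/kg replicate 3 was low in Umod (1157, ratio 0.756) and in Slc12a1 (962, ratio 0.744), 2 genes of the same segment. In saline kidneys of day 8 replicate 3 was high in Mki67 (68.3, ratio 0.845).

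The slope on Umod differed between the doses for 8 genes in limma (adjusted p = 0.0241 for each). The difference, 3 mg/kg minus 1 mg/kg, was 0.932 for Fn1, 0.963 for Ccna2, 0.881 for Ccl2 and 0.814 for Rbl1, and -1.68 for RT1-CE10, -2.69 for RT1-Bb, -1.68 for Cyp2c11 and -0.751 for Gcat, in log2 units per log2 unit of Umod. At 1 mg/kg Umod was 1157 in replicate 3 and 2424 to 3075 in the other animals, and 0 genes were called without that kidney.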

How the results depend on the processing

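Counts of genes past an r of 0.8 were 312 for Havcr1 and 837 for Umod. Leaving dose differences in gave 689 and 1644, and a limit of 0.9 gave 65 and 222. Equal weight of the doses gave 505 for Umod, and omission of the 2 farthest animals 478. The r of Havcr1 with Umod was -0.396 with equal weight, -0.599 with dose differences left in and -0.563 without the 2 animals farthest out on Umod. The first component held 48.4% without the 2 farthest on Havcr1. Without the 2 farthest, 5 genes changed sign: Gstp1 (-0.0991), Loxl1 (-0.056) and Tgfb1 (-0.0905) with Havcr1, and Aqp4 (0.604) and Aqp1 (0.509) with Umod. The cause of these shifts was not tested.

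On days 3 and 5 an offset of 64 gave 1 gene on Havcr1. On day 26 an offset of 64 gave 5 on Havcr1, the mean of probe sets 2 and omission of the 2 farthest 1. The dose interaction on Umod gave 13 with an offset of 64, 17 with 75th percentile centring and 3 without the 2 farthest. The slopes on Umod in saline kidneys gave 57 after quantile normalization, 6 with 75th percentile centring, 3 without a filter, 5 with the mean of probe sets, 4 without a variance trend, 2 with robust estimation and 0 without the 2 farthest. The single relations of Havcr1, 2 of which passed, gave 0 without an offset and 0 without the 2 farthest.

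Leaving out 1 array at a time gave 322 to 603 genes on Havcr1 (603, 565 and 500 without 3 mg/kg replicates 2, 3 and 4) and 624 to 1279 on Umod (1279 without 1 mg/kg replicate 3). It gave an r between the markers of -0.306 to -0.0451 and 31.7% to 42.6% for the first component. Slopes on Havcr1 gave 0 to 1 on days 3 and 5 (1 without 1 mg/kg day 3 replicate 1) and 0 to 3 on day 26 (3 without 1 mg/kg replicate 5 or 3 mg/kg replicate 4, 1 without 1 mg/kg replicate 3). Those on Umod gave 0, and 0 to 1 on day 26 (1 without 3 mg/kg replicate 1 or 2). In saline kidneys they gave 0 and 0 to 20. The dose interactions gave 0 to 410 and 0 to 49, the quality relations 0 and the single relations 0 to 3.

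Replicate numbers did not pair the doses: same-numbered animals correlated at 0.21, 0.063, -0.074, -0.12 and 0.072. With the replicate block, which leaves few residual degrees of freedom among 10 animals, the counts were 2086 for Havcr1 and 2319 for Umod, and r between the markers was -0.961. The block gave 2 genes on Havcr1 on days 3 and 5, 0 for the dose interaction on Umod, 0 on Umod in saline kidneys and 9 single relations.

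Depth is unknown, since intensities carry no counts. Umod at 3 mg/kg replicates 2, 4 and 5 is at the floor, so its level there, and slopes on it, are bounded by the array's range and the offset.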

Other observations

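RT1-Bb, a class II gene of the major histocompatibility complex, was either high or near the floor in each day 8 group. It read 3.19, 379, 741, 8.39 and 426 in saline kidneys, 471, 488, 6.05, 741 and 391 at 1 mg/kg and 573, 7.49, 692, 0.821 and 6.32 at 3 mg/kg. The class I gene RT1-CE10 was low in the same kidneys, with 23.4, 325, 486, 33.3 and 297 in saline kidneys, 363, 304, 41.2, 586 and 272 at 1 mg/kg and 289.7, 31.6, 325, 37.4 and 26.3 at 3 mg/kg. Among the cisplatin kidneys the 4 with low RT1-Bb, 1 mg/kg replicate 3 and 3 mg/kg replicates 2, 4 and 5, were those with the least Umod of their dose. In saline kidneys replicates 1 and 4 were low in RT1-Bb with Umod at 2676 and 2393, inside the range of the other three for replicate 1 and below it for replicate 4. The slope of RT1-Bb on Umod in other arrays was -6.89 ± 4.64 on days 3 and 5, 4.74 ± 3.34 on day 26 and 1.10 ± 3.43 in saline kidneys, with adjusted p of 0.975, 0.906 and 0.970 in limma. The relation was seen after the values were known, and on day 8 only its difference between the doses was tested.

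The sterol regulator gene Insig1 read 209, 1480.1, 316, 511 and 183 at 3 mg/kg and 326 to 521 in controls, and its highest value was in replicate 2, which also had the most S100a8 (68.6, against 2.36 to 13.9 in controls).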
